A study of Homo sapiens with 6 samples.

Results

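The genes for the proteins of the cytosolic ribosome were followed through the induction of neural crest from human embryonic stem cells. They were chosen by symbol, as RPL or RPS followed by a number, with the letters of family copies allowed, together with RPLP0, RPLP1, RPLP2 and RPSA. Kinases of the RPS6K family, the Y-linked RPS4Y genes and pseudogenes were left out. This rule used names and no measured value, and it gave 84 of the 23284 genes in the deposited table, of which 32 encode proteins of the small subunit and 52 proteins of the large subunit. RPS18 lies on a haplotype contig of that build.

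The cells were WA01, an established human embryonic stem cell line, of wildtype genotype. Poly-adenylated RNA was measured in 6 libraries, 2 in each of 3 groups: undifferentiated cells (ES) on day 0, pre-neural crest cells (preNC) on day 3 and neural crest cells (NC) on day 5. For every library alike, day 0 included, the labels' protocols list dissociated cells at 20000 per cm2 on Matrigel, 3 µM CHIR99021, which inhibits the kinase GSK3, in a medium supplemented with albumin and B27, and at the beginning also Y-27632, which inhibits ROCK kinases, at 10 µM. The table holds 1 FPKM value per gene and group, that is, read fragments per unit of transcript length and of library size, with both libraries of the group combined by the authors. No spread between libraries could therefore be computed, and sequencing depth is unknown. Nothing in the labels says that the libraries of a group came from separate cultures, so the deposited p-values may measure technical spread alone.

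The labelled cell states were checked against markers. In the authors' deposited table, 7 of 8 tested markers of pluripotent stem cells were lower and 7 of 9 tested neural crest markers were higher on day 5 than on day 0. POU5F1, a core factor of pluripotency, was at 1087, 85.3 and 9.40 FPKM on days 0, 3 and 5, and PAX3, a transcription factor of the neural plate border and neural crest, at 0.253, 3.36 and 39.9 FPKM. On day 3, 5 of 6 tested neural progenitor markers were higher than on day 0. On day 5, 3 of the 6, DBX1, PAX6 and LIX1, were still higher than on day 0. Between day 5 and day 3, 3 of the 6 were lower and 1, PAX6, was higher.

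The ribosome translates mRNA into protein. Its small subunit decodes the message and its large subunit joins the amino acids, and both are put together in the nucleolus from ribosomal RNA and the ribosomal proteins with the help of assembly factors. Most vertebrate ribosomal protein mRNAs begin with a C followed by an unbroken run of pyrimidines, the terminal oligopyrimidine (TOP) motif, through which the kinase mTOR and the RNA-binding protein LARP1 control their translation. Mutations in many of these genes cause Diamond-Blackfan anemia, and mutations that impair the making of ribosomal RNA cause Treacher Collins syndrome, a disorder of the cranial neural crest.

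Ribosomal protein mRNAs were among the most abundant transcripts on all 3 days, and 82 of them were expressed throughout. These 82 had an FPKM of at least 10 on every day, and the other 2, RPL10L and RPL3L, stayed below 1. The median level was 2521, 2448 and 2354 FPKM on days 0, 3 and 5, with quartiles of 1389 and 3410, 1359 and 3199, and 1329 and 3168 FPKM. At least 1000 FPKM was reached by 65, 65 and 66 of the genes. They made up 64, 60 and 64 of the 100 genes with the highest FPKM on the 3 days, counted over genes whose locus spans at least 300 bases.

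The highest levels belonged to proteins of both subunits. RPL41, the smallest protein of the large subunit, was at 10179, 10787 and 10028 FPKM on days 0, 3 and 5. RPS27, a zinc-binding protein of the small subunit, was at 10734, 10014 and 9855 FPKM. RPLP1, an acidic protein of the stalk that recruits translation factors, was at 6537, 6545 and 6390 FPKM. None of these 3 differed between any days by as much as 1.2 times. RPL37A of the large subunit followed with 6435, 6423 and 6182 FPKM, and RPS2, which lies at the entry of the mRNA channel, with 5516, 5903 and 5717 FPKM. RPS29, a small zinc-binding protein of the small-subunit head, was the exception in this group, with 7285, 5653 and 4742 FPKM. Over the whole set levels showed little order by coding length, as the Spearman correlation of mean FPKM and length in GENCODE was -0.10 over 81 genes, given as a description. The highest genes were mostly short, with 78 coding bases for RPL41, 255 for RPS27, 345 for RPLP1, 279 for RPL37A and 171 for RPS29. RPS2 had 882, and the median of the set was 456.

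The promoters of these genes are shown for 3 sets, the genes with the lowest day 5 to day 0 ratios (RPL22L1, RPS26 and RPS29), 2 of those with the highest (RPS19 and RPLP0) and the 2 most abundant (RPL41 and RPS27). Each line gives 40 bases before and 20 bases from the listed transcript start of RefSeq on GRCh38.p14, 5′ to 3′ on the strand of the gene. Capitals mark the start base and the C or T bases that follow it without a break.
RPL22L1: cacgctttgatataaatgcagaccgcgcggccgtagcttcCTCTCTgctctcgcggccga
RPS26: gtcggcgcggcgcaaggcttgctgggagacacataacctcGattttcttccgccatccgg
RPS29: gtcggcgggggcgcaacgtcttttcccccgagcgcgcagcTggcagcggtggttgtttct
RPS19: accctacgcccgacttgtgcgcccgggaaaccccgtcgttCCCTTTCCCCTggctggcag
RPLP0: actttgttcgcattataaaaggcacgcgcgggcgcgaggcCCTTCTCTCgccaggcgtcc
RPL41: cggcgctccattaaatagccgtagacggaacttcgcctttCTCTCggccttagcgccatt
RPS27: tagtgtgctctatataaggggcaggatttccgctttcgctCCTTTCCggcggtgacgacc
These windows lie on chromosome 3 minus strand (170870176 to 170870235) for RPL22L1, chromosome 12 plus strand (56041878 to 56041937) for RPS26 and chromosome 14 minus strand (49598691 to 49598750) for RPS29. They lie on chromosome 19 plus strand (41860215 to 41860274) for RPS19 and chromosome 12 minus strand (120201092 to 120201151) for RPLP0. Those of the abundant genes lie on chromosome 12 plus strand (56116593 to 56116652) for RPL41 and chromosome 1 plus strand (153990722 to 153990781) for RPS27. RPS19 has 2 listed windows, of which 1 is shown.

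A TOP start was counted where a listed start was a C followed by at least 4 bases of C or T, read on the gene's own strand. Of the 84 genes, 67 had a listed window, and 47 of these 67 (70.1%) had a TOP start, against 1404 of 27305 genes of all kinds (5.14%). In the lines above, RPL22L1, RPS19, RPLP0, RPL41 and RPS27 carry it, and RPS26 and RPS29 do not at the start that RefSeq lists. That start may not be the main start of RPS26 or RPS29, so either may still have a TOP start elsewhere. The same limit holds for the other genes counted without a TOP start. The ETS core CCGGAAG, searched on both strands of the 300 bases from 250 before to 50 after the start, was found in 35.8% of ribosomal protein genes and 12.2% of all genes. The SP1 core GGGCGG was found in 58.2% and 48.3%, the TATA box TATAAA in 10.4% and 14.0%, and the YY1 core AAGATGGCG in 8.96% and 2.14%. These matches are descriptions of letters and not of bound sites.

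Genes counted with and without a TOP start at a listed start had similar medians. The 47 genes with it had a median of 2617, 2597 and 2468 FPKM on days 0, 3 and 5, and the 19 expressed genes with a window and without it had 2447, 2442 and 2350 FPKM. The median log2 ratios of day 3 to day 0, day 5 to day 3 and day 5 to day 0 were -0.01, -0.04 and -0.05 with the TOP start and -0.04, -0.03 and -0.05 without it. No test was made of these differences. The groups rest on the listed starts, which may not be the main ones, so they cannot compare TOP with other mRNAs.

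**Figure D1:**
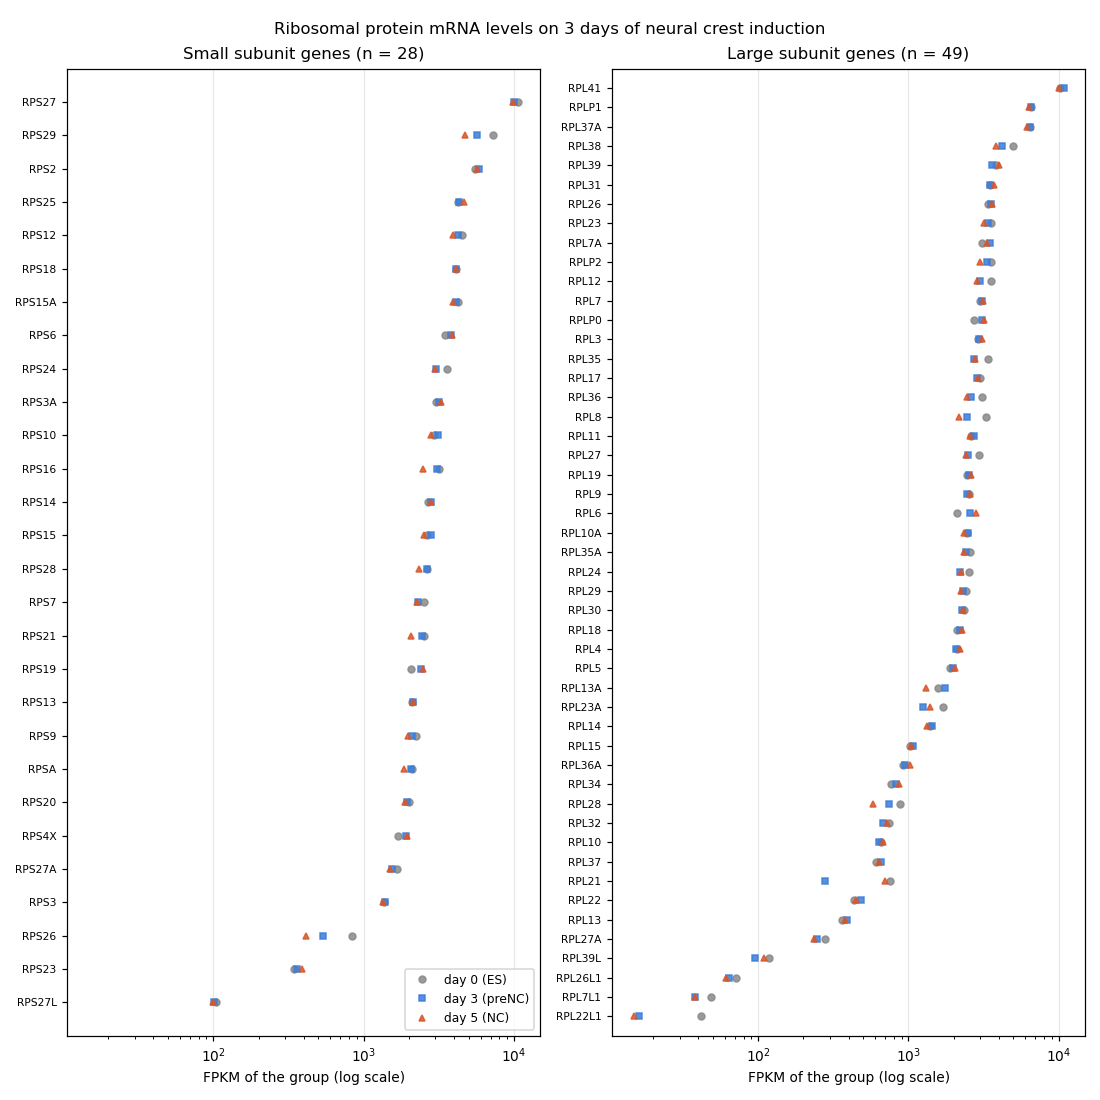
Level of each of 77 ribosomal protein genes at an FPKM of at least 10 on all 3 days, by subunit and in order of mean level (FPKM of the group on a log axis, 1 point per day). For most genes the 3 points lie on each other, and RPL22L1, RPS26, RPS29 and RPL21 are the genes whose points stand apart most.

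Between day 3 and day 0, 1 ribosomal protein gene fell and the median of the set lay close to 0 on the log2 scale. A gene is called here where Cuffdiff tested it and its q in the authors' deposited table is below 0.05. Of 83 tested ribosomal protein genes, 0 were called higher and 1, RPL22L1, was called lower, where 20.6% of all tested genes were called, 8.96% higher and 11.6% lower. Among the 634 tested other genes with an FPKM of at least 100 on all 3 days, called the abundant others from here on, 5.36% were called. Their levels were not matched to those of the ribosomal protein genes, of which 65 were at 1000 FPKM or more on day 0. At an unadjusted p below 0.05 there were 2 genes, RPL22L1 and RPS26, both lower. In bulk RNA, fewer cells of a type and less RNA per cell cannot be told apart.

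The median log2 ratio of day 3 to day 0 was -0.03 over the 82 ribosomal protein genes at 1 FPKM or more in each group, 0.05 over all such genes and -0.04 over the abundant other genes. Within 0.25 of 0 on the log2 scale lay 71 of 82 ribosomal protein genes (86.6%), against 39.0% of all genes and 50.5% of the abundant others. The standard error implied by the deposited test statistic, which is the log2 ratio divided by that statistic, had a median of 0.40 on the log2 scale. For 59 of the 82 genes the log2 ratio with 2 such errors on either side stayed within -1 and 1. Changes smaller than this error were not detectable, and changes well above it could also go uncalled. RPS26, for example, had a log2 ratio of -0.65 ± 0.26 here and was not called (Cuffdiff q = 0.0770).

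Between day 5 and day 3, 0 of 82 tested ribosomal protein genes were called in either direction by Cuffdiff, where 12.6% of all tested genes (5.93% higher and 6.68% lower) and 2.84% of the abundant others were called. At an unadjusted p below 0.05 there were also 0, and there were 0 when p was recomputed from the test statistic under a normal distribution. The median log2 ratio was -0.04 over the ribosomal protein genes, -0.06 over all genes and -0.15 over the abundant others. Within 0.25 of 0 lay 76 of 82 genes (92.7%), against 43.5% of all genes and 56.6% of the abundant others. With 2 implied standard errors on either side, the log2 ratio stayed within -1 and 1 for 57 of the 82 ribosomal protein genes.

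Between day 5 and day 0, 0 of 83 tested ribosomal protein genes were called higher and 2, RPL22L1 and RPS26, were called lower, where 27% of all tested genes (12.2% higher and 14.7% lower) and 10.9% of the abundant others were called. RPS29 was the only further gene at an unadjusted p below 0.05. The median log2 ratio was -0.05 over the ribosomal protein genes, -0.01 over all genes and -0.19 over the abundant others. Within 0.25 of 0 lay 62 of 82 genes (75.6%), against 31.4% and 41.5%. With 2 implied standard errors on either side, the log2 ratio stayed within -1 and 1 for only 51 of the 82 ribosomal protein genes. The 3 comparisons share groups, so their values are not independent of each other. None of the differences between the gene sets was tested, and they are given as descriptions.

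**Figure D2:**
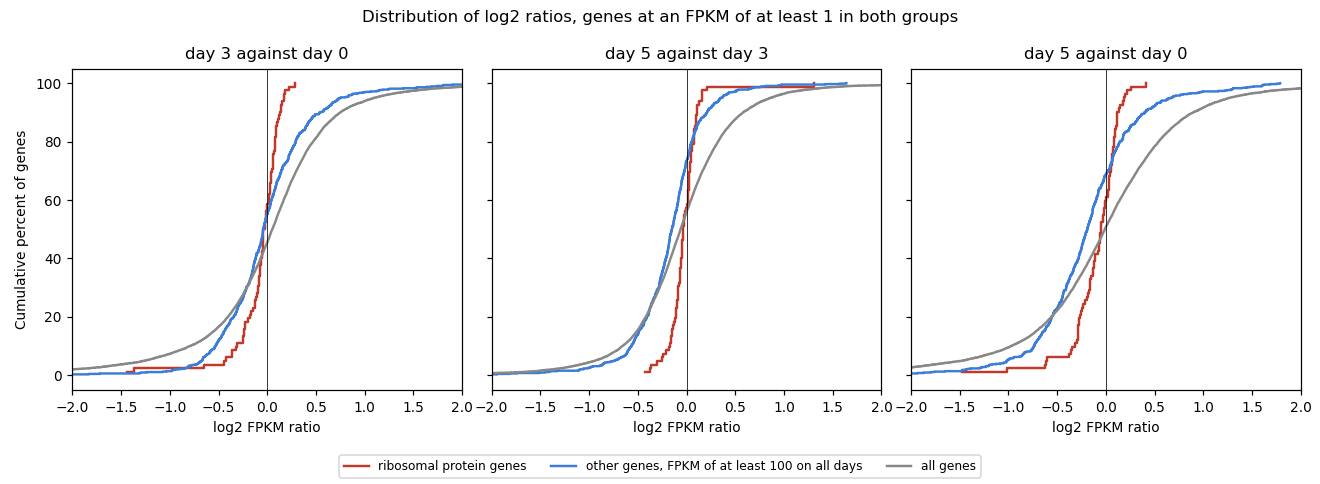
Cumulative share of genes (percent) by log2 FPKM ratio in the 3 comparisons, for ribosomal protein genes, for other genes with an FPKM of at least 100 on all days and for all genes. The curve of the ribosomal protein genes is steepest around 0, with 86.6%, 92.7% and 75.6% of them within 0.25 of 0, and ratios beyond the axis are not drawn.

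Taking the 3 days together, the highest day of a ribosomal protein gene was a median of 1.11 times its lowest day, against 1.34 times for the 638 abundant other genes. These others were not matched to the ribosomal protein genes in level. For 63 of the 82 ribosomal protein genes the ratio of highest to lowest day was under 1.2. It was over 1.5 for 6 genes (7.32%), RPL8, RPL28, RPS29, RPS26, RPL21 and RPL22L1, against 211 of the 638 others (33.1%). Of the 82 genes, 30 were lower at both steps, 18 were higher at both, 17 were higher on day 3 and then lower, and 17 were lower on day 3 and then higher. The order of the genes was nearly the same on neighbouring days, with Spearman correlations of log2 FPKM across the 82 genes of 0.977 between day 3 and day 0 and 0.988 between day 5 and day 3. The values are all per transcript length, and genes are not independent replicates.

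The summed level of the ribosomal protein genes was 219934, 213813 and 208870 FPKM on days 0, 3 and 5. Day 3 was at 0.972 of day 0, and day 5 was at 0.977 of day 3 and 0.950 of day 0. As a share of the FPKM of all genes the same sums were 21.2%, 20.8% and 23.7%, so the direction for day 5 turns with the scale used. MIR4461, MIR1244-1 and MIR1244-3, which encode small RNAs, held 27.0%, 25.9% and 21.9% of all FPKM on the 3 days. As FPKM is per transcript length, these percentages are not shares of the read fragments. Without these small RNA genes the share of the ribosomal protein genes in the FPKM was 29.1%, 28.0% and 30.3%. The FPKM sum itself had a log2 ratio of -0.22 for day 5 against day 3 and -0.23 for day 5 against day 0. Once this was taken off, the median ribosomal protein gene was at 0.19 on the log2 scale in both comparisons. On that scale the median over all genes was also above 0, at 0.16 and 0.22. The median over the abundant others was 0.07 and 0.04.

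The genes of the small subunit summed to 98719, 95687 and 92647 FPKM on days 0, 3 and 5, with median log2 ratios of -0.03 for day 3 against day 0, -0.03 for day 5 against day 3 and -0.06 for day 5 against day 0. Those of the large subunit summed to 121215, 118127 and 116224 FPKM, with median log2 ratios of -0.03, -0.04 and -0.04 in the same comparisons. In the authors' deposited table, RPS26 was the 1 small-subunit gene called and RPL22L1 the 1 large-subunit gene called.

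**Figure D3:**
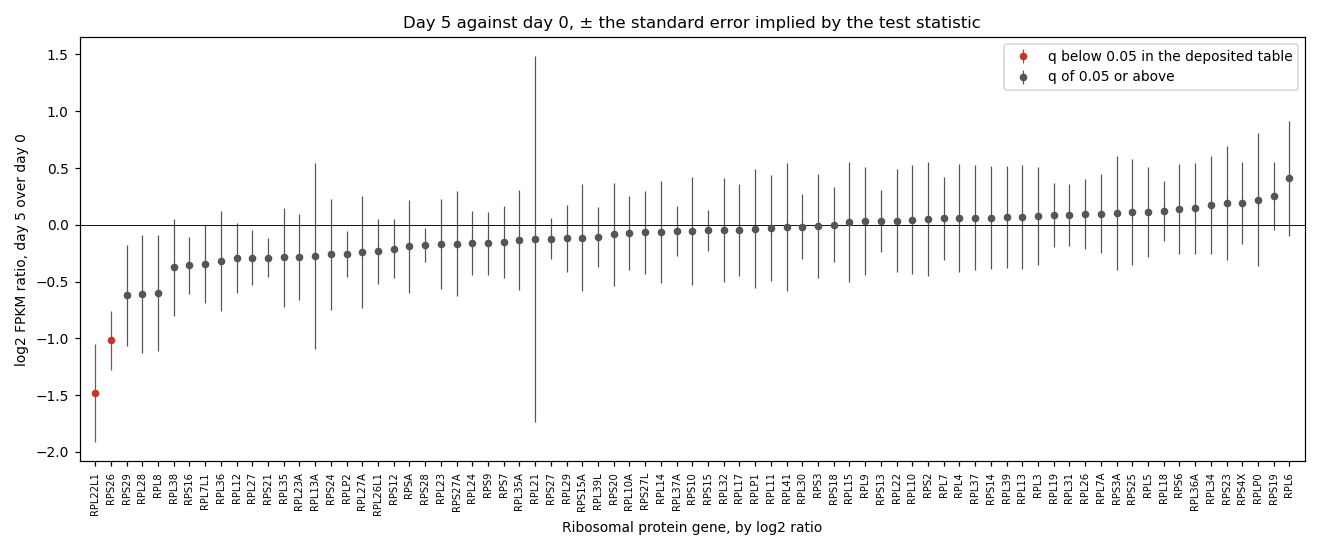
Log2 FPKM ratio of day 5 to day 0 for 77 ribosomal protein genes at an FPKM of at least 10, ordered by ratio, with bars of 1 standard error implied by the deposited test statistic. RPL22L1 at -1.48 and RPS26 at -1.02 are drawn in red, as the 2 genes called in the authors' deposited table.

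RPL22L1 is the paralog of RPL22, a protein of the large subunit that lies near the peptide exit tunnel, and in the mouse RPL22 is known to hold down expression of its paralog. The gene lies on chromosome 3 from 170582665 to 170588045 in hg19. Its level was 41.4, 16.0 and 14.8 FPKM on days 0, 3 and 5, the lowest of the 82 expressed genes on average. Most of the fall lay before day 3. Its log2 ratio was -1.37 ± 0.42 (implied standard error) for day 3 against day 0, and the authors' deposited table gives q = 0.000596. It was -0.11 ± 0.44 for day 5 against day 3, and the authors' deposited table gives q = 0.867. It was -1.48 ± 0.43 for day 5 against day 0, which is 2.79 times lower, and the authors' deposited table gives q = 0.000596. RPL22 itself was at 434, 481 and 446 FPKM and was not called. RPL22L1 was thus at 9.52%, 3.34% and 3.33% of the level of RPL22 on days 0, 3 and 5.

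RPL22L1 lies on chromosome 3 and RPL22 on chromosome 1. Their coding sequences, taken from GENCODE release 29 and aligned, were 68.6% identical, with 116 differing bases in 369, and the longest identical run was 17 bases.

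The expressed copies RPL7L1, RPL26L1, RPL39L and RPS27L stood at a low share of the level of their parents and were not called in any comparison, nor at an unadjusted p below 0.05. RPL7L1, a nucleolar relative of RPL7, was at 48.6, 37.8 and 38.2 FPKM on days 0, 3 and 5, which is 1.62%, 1.23% and 1.22% of RPL7 (3004, 3065 and 3126 FPKM). RPL26L1 was at 71.4, 64.4 and 60.7 FPKM, or 2.12%, 1.81% and 1.68% of RPL26 (3376, 3558 and 3608 FPKM). RPL39L was at 119, 95.2 and 110 FPKM, or 3.11%, 2.65% and 2.75% of RPL39 (3816, 3594 and 4002 FPKM), whose protein lines the peptide exit tunnel. RPS27L was at 104, 102 and 99.7 FPKM, or 0.972%, 1.01% and 1.01% of RPS27. RPS27L moved least of these copies, with a log2 ratio of -0.07 ± 0.36 (implied standard error) for day 5 against day 0.

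RPS27L and RPS27 are shown because both encode a protein of the same length and show how far reads of such a pair can be told apart. The coding sequences are those of GENCODE release 29 on GRCh38, in lower case, with capitals where a base differs from the aligned base of the other gene.
RPS27L: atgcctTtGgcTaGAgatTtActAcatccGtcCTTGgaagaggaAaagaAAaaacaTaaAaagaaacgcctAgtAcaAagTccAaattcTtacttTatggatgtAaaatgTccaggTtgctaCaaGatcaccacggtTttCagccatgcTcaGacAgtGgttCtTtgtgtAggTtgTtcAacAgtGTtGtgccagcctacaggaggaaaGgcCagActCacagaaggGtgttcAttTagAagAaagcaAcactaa
RPS27: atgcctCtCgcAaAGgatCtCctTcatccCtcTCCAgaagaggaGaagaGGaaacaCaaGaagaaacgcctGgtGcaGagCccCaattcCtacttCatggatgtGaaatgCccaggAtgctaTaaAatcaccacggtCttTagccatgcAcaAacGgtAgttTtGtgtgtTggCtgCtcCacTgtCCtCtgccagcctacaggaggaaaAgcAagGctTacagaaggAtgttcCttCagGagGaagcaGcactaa
RPS27L lies on chromosome 15 and RPS27 on chromosome 1. Over 255 bases they differ at 56, with 78.0% identity and a longest identical run of 20 bases. Identity of the coding sequence was 84.2% for RPL26L1 and RPL26, 56.4% for RPL7L1 and RPL7, and highest for RPL39L and RPL39 at 94.9%, with 8 differing bases in 156 and an identical run of 44 bases. How reads that fit both genes of a pair were shared out is not given in the sources used here, so the level of RPL39L is uncertain. Of the copies with a listed promoter, RPL22L1 has a TOP start and RPL7L1, RPL26L1, RPS27L and RPL10L do not at the start that RefSeq lists.

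Copies known for tissue-restricted expression were near 0. RPL3L, a paralog of RPL3 of heart and skeletal muscle, was listed at 0.338, 0.120 and 0.0200 FPKM on days 0, 3 and 5, beside 2920, 2965 and 3087 FPKM for RPL3. RPL10L, a retrotransposed copy of the X-linked RPL10 that is expressed in the testis, was listed at 0.0206 FPKM on day 0 and at 0 on days 3 and 5, beside 656, 633 and 677 FPKM for RPL10. RPL10L was tested in none of the comparisons, and RPL3L was not tested between day 5 and day 3.

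**Figure D4:**
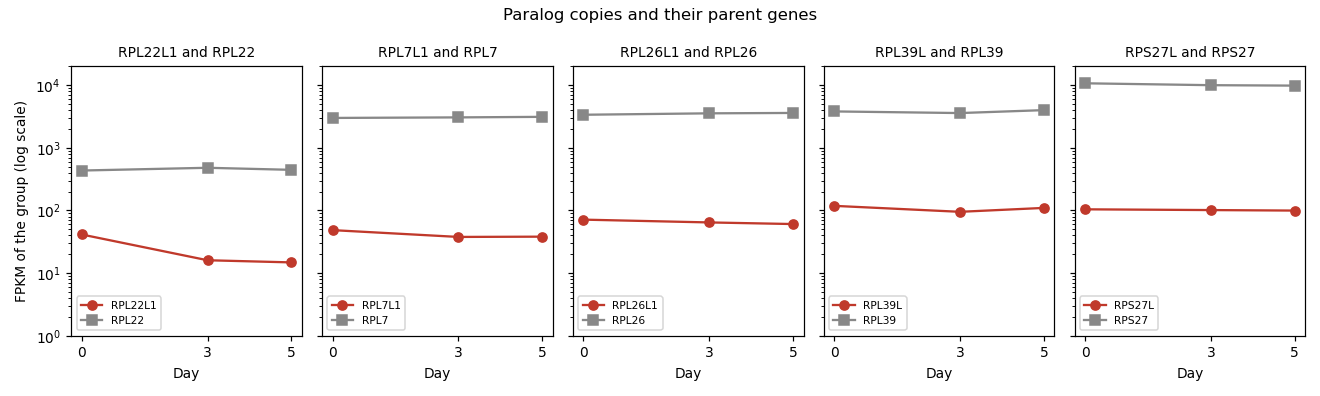
Level (FPKM of the group, log axis) of 5 expressed paralog copies and of their parent genes on days 0, 3 and 5, in 1 panel per pair. The RPL22L1 line drops from day 0 to day 3 while that of RPL22 stays between 434 and 481 FPKM, and the other pairs run nearly level.

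RPS26 is a small-subunit protein next to the mRNA exit channel, and mutations in it cause Diamond-Blackfan anemia. The gene lies on chromosome 12 from 56435686 to 56438007 in hg19. Its level was 843, 538 and 416 FPKM on days 0, 3 and 5, lower at each step. The log2 ratio was -0.65 ± 0.26 (implied standard error) for day 3 against day 0, and the authors' deposited table gives q = 0.0770. It was -0.37 ± 0.26 for day 5 against day 3, and the authors' deposited table gives q = 0.391. It was -1.02 ± 0.26 for day 5 against day 0, which is 2.03 times lower, and the authors' deposited table gives q = 0.00157. The processed pseudogene RPS26P11 stood at 18.9%, 19.1% and 18.7% of the level of RPS26 on the 3 days, with 159, 103 and 78.1 FPKM. RPS26P11 was also called lower on day 5 than on day 0, with a log2 ratio of -1.03 and q = 0.0353 according to the authors' deposited table. Reads of the gene and its pseudogene may not be separable, and the sum of both gave a log2 ratio of -1.02 for day 5 against day 0.

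In the head of the small subunit, which holds the tRNA contacts and moves during translocation, 0 of 13 tested genes were called by Cuffdiff in any comparison, and RPS29 was the 1 gene at an unadjusted p below 0.05, between day 5 and day 0. RPS29 of this group had a log2 ratio of -0.62 ± 0.44 (implied standard error) for day 5 against day 0, and the authors' deposited table gives q = 0.139. RPS19, a head protein and the gene most often mutated in Diamond-Blackfan anemia, was at 2063, 2404 and 2467 FPKM on days 0, 3 and 5, a log2 ratio of 0.26 ± 0.30 for day 5 against day 0. RPS16, also of the head, was at 3181, 3076 and 2486 FPKM. Of the 13 tested genes listed for Diamond-Blackfan anemia, RPS26 was the 1 called, between day 5 and day 0, and the median log2 ratios were -0.01 for day 3 against day 0, -0.05 for day 5 against day 3 and -0.12 for day 5 against day 0. RPS6, the substrate of S6 kinase in the body of the subunit, was at 3500, 3823 and 3856 FPKM. RPSA, which also serves as a laminin receptor, was at 2110, 2071 and 1852 FPKM.

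In the large subunit, none of the genes of the P stalk, which recruits the elongation factors, was called. RPLP0, its base, was at 2722, 3092 and 3174 FPKM on days 0, 3 and 5, with a log2 ratio of 0.22 ± 0.58 (implied standard error) for day 5 against day 0. RPLP2, the partner of RPLP1, was at 3557, 3333 and 2972 FPKM. RPL5 and RPL11, which bind the 5S ribosomal RNA, were at 1893, 1972 and 2050 FPKM and at 2617, 2718 and 2563 FPKM. None of the 3 stalk genes, these 2 genes or the 9 genes of the peptide exit tunnel and its rim was called by Cuffdiff in any comparison, and none of them had an unadjusted p below 0.05.

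RPL6 was the gene with the highest day 5 to day 0 ratio, at 2107, 2559 and 2796 FPKM on days 0, 3 and 5. Its log2 ratio was 0.41 ± 0.50 (implied standard error), and the authors' deposited table gives q = 0.496. Its 2 listed promoter windows hold no TOP start. RPL8, which contacts the peptidyl transferase centre, was at 3287, 2455 and 2170 FPKM, a log2 ratio of -0.60 ± 0.51 for day 5 against day 0. RPL28 was at 885, 747 and 579 FPKM, a log2 ratio of -0.61 ± 0.52 in the same comparison. The q was 0.224 for RPL8 and 0.247 for RPL28 in the authors' deposited table. RPL38, known in the mouse for its part in the translation of Hox mRNAs, was at 4935, 4227 and 3808 FPKM, with a log2 ratio of -0.37 ± 0.43 for day 5 against day 0. RPL23A, a docking site for nascent-chain factors at the tunnel exit, was at 1694, 1244 and 1393 FPKM. RPL27A was the lowest gene that is not a copy of another, at 280, 248 and 237 FPKM.

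RPL21 had the largest implied standard error of the expressed genes in all 3 comparisons. It was at 759, 280 and 694 FPKM on days 0, 3 and 5, a log2 ratio of -1.44 ± 5.98 (implied standard error) for day 3 against day 0 and 1.31 ± 6.01 for day 5 against day 3. The q was 0.765 and 0.739 for these in the authors' deposited table. RPL21P28, placed at the same locus on chromosome 13, was at 2027, 2924 and 2497 FPKM and was not tested. The sum of both was 2785, 3203 and 3191 FPKM, so the log2 ratio became 0.20 for day 3 against day 0 and -0.01 for day 5 against day 3. RPL13A, a target of phosphorylation in interferon responses, likewise shares its locus with RPL13AP5. It was at 1580, 1756 and 1306 FPKM, and RPL13AP5 at 4459, 4622 and 4055 FPKM.

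Of the 84 genes, 35 share their locus in the table with another gene, and for 27 of these the other gene is a small nucleolar RNA, since many ribosomal protein genes host such RNAs in their introns. The median level was 2552, 2408 and 2330 FPKM on days 0, 3 and 5 with a shared locus and 2521, 2455 and 2359 FPKM without. Chromosome 19 carries 12 of the genes and chromosome 3 carries 9. Of the 28 pseudogenes of ribosomal proteins in the table, 17 were tested between day 3 and day 0, 17 between day 5 and day 3 and 16 between day 5 and day 0. The calls among them were RPS26P11, lower, and RPL23AP53, higher, both between day 5 and day 0. RPL23AP53 was at 1.07, 1.59 and 2.68 FPKM on the 3 days.

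Ribosomal proteins named under other symbols were not called either. FAU, a fusion of a ubiquitin-like protein with RPS30, was at 977, 881 and 763 FPKM on days 0, 3 and 5. GNB2L1, the scaffold protein RACK1 of the small subunit, was at 1947, 1999 and 1748 FPKM. RPL36AL, an intron-poor relative of RPL36A, was at 589, 418 and 366 FPKM. In the authors' deposited table, 0 of 4 such genes were called by Cuffdiff in any comparison, and RPL36AL was the 1 gene at an unadjusted p below 0.05, with a q of 0.0566 for day 5 against day 0. RPL36AL was called there when p was recomputed from the test statistic under a normal distribution.

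Among the other genes of ribosome production, 14 assembly factors fell between day 3 and day 5. Of 40 tested ribosome biogenesis factors, which process ribosomal RNA and assemble the subunits, Cuffdiff called 0 in the authors' deposited table for the first step, day 3 against day 0, with 2 at an unadjusted p below 0.05. Between day 5 and day 3, 14 of the 40 (35.0%) were called lower and 0 higher, where 12.6% of all tested genes were called. When p was recomputed from the test statistic under a normal distribution, 5 of the 40 were called, beside 1242 of all 15932 tested genes. Between day 5 and day 0, 14 of 40 were called lower and 0 higher, beside 27% of all tested genes. With the recomputed p there were 8 of 40, beside 3106 of all 16409 tested genes. The median log2 ratio of these factors was -0.06 for day 3 against day 0, -0.62 for day 5 against day 3 and -0.63 for day 5 against day 0. The difference between this list and the ribosomal protein genes was not tested. Relative to the FPKM sum, the median was -0.40 in both day 5 comparisons. RRS1, which brings the 5S particle into the large subunit, was at 49.7, 45.7 and 16.4 FPKM on days 0, 3 and 5, a log2 ratio of -1.48 ± 0.31 (implied standard error) for day 5 against day 3. RRP9, a protein of the U3 small nucleolar particle, was at 37.3, 33.6 and 15.6 FPKM, and NOP16 at 53.5, 44.9 and 21.1 FPKM, and both were called lower on day 5 than on day 3. The most abundant nucleolar proteins were not called, with 2521, 2110 and 1744 FPKM for NPM1, 585, 497 and 381 FPKM for NCL and 515, 370 and 327 FPKM for FBL. Their log2 ratios for day 5 against day 0 were -0.53 ± 0.55, -0.62 ± 0.46 and -0.66 ± 0.28, beside the list median of -0.63. For day 5 against day 3 they were -0.28, -0.39 and -0.18, beside -0.62.

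RNA polymerase I and its factors, which make the ribosomal RNA precursor, had few calls. Of 15 tested genes, 0 were called by Cuffdiff or at an unadjusted p below 0.05 between day 3 and day 0, 2 were called lower between day 5 and day 3 and 1 was called lower between day 5 and day 0, all read from the authors' deposited table. These are 13.3% and 6.67% of the list, near and below the 12.6% and 27% of all tested genes, and with the recomputed p 0 were called. The 2 called between day 5 and day 3 were UBTF, the upstream binding factor of ribosomal DNA, at 24.8, 33.0 and 18.8 FPKM on days 0, 3 and 5, and POLR1B, a catalytic subunit, at 11.4, 12.1 and 6.90 FPKM. The median log2 ratio of the list was 0.34 for day 3 against day 0 and -0.39 for day 5 against day 3, or 0.35 and -0.17 relative to the FPKM sum.

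**Figure D5:**
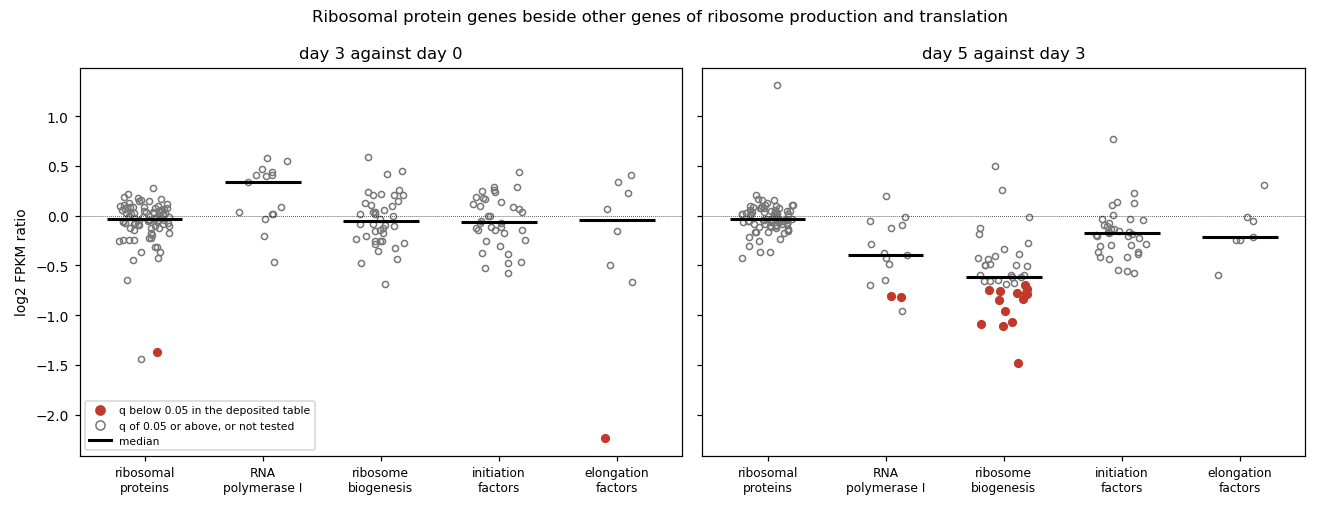
Log2 FPKM ratio of each gene in the ribosomal protein set and in 4 lists of genes of ribosome production and translation, for day 3 against day 0 (left) and day 5 against day 3 (right), with the median of each list as a bar and genes called in the authors' deposited table filled. For day 5 against day 3 the median of the ribosome biogenesis factors lies at -0.62 and that of the ribosomal proteins at -0.04.

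Of 36 tested initiation factors, 0 were called by Cuffdiff between day 3 and day 0 and 0 between day 5 and day 3, with 2 and 4 at an unadjusted p below 0.05. Between day 5 and day 0, 3 (8.33%) were called lower in the authors' deposited table, fewer than the 27% of all tested genes. With the recomputed p there was 1 of 36, beside 3106 of all 16409 tested genes. The 3 called by the deposited q were EIF3B (130, 90.0 and 61.5 FPKM on days 0, 3 and 5), EIF6, which keeps the subunits apart (151, 102 and 76.2 FPKM), and EIF2S2 (119, 86.0 and 70.2 FPKM). Median log2 ratios of the list were -0.06 for day 3 against day 0, -0.18 for day 5 against day 3 and -0.20 for day 5 against day 0, and relative to the FPKM sum the last 2 turned to 0.04 and 0.04. Of 8 tested elongation factors, EIF5A and the tissue-restricted EEF1A2 were called lower between day 5 and day 0 (2 of 8, beside 27% of all tested genes), with 743, 466 and 307 FPKM and with 13.2, 2.80 and 0.932 FPKM on the 3 days. EEF1A2 was also called lower at each of the other comparisons, as the 1 of 8. That is 12.5%, beside 20.6% of all tested genes for day 3 against day 0 and 12.6% for day 5 against day 3. EEF1A1 is listed at 0 on all days with the status HIDATA, which Cuffdiff gives to a locus with too many fragments to process, so its 0 is not a measured level.

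Among 17 tested genes of MYC and of mTOR regulation, 3 (17.6%) were called lower and 0 higher between day 3 and day 0, beside 20.6% of all tested genes, and 6 (35.3%) were called lower and 0 higher between day 5 and day 0, beside 27%, as the authors' deposited table lists them. MYC, a transcription factor known to drive genes of ribosome production, was at 39.9, 8.34 and 5.43 FPKM on days 0, 3 and 5. MYCN was at 65.5, 53.5 and 23.5 FPKM and was called lower between day 5 and day 3 in the authors' deposited table. EIF4EBP1, an mTOR-controlled repressor of cap-dependent initiation, was at 225, 65.2 and 54.1 FPKM. LARP1 was among the 6 called lower between day 5 and day 0. With the recomputed p, 4 of the 17 were called in that comparison, beside 3106 of all 16409 tested genes. The median log2 ratio of the list there was -0.32, or -0.09 relative to the FPKM sum.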

How the data were processed

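RNA was measured in 6 libraries of WA01 cells, 2 each of ES (day 0), preNC (day 3) and NC (day 5) cells. TopHat2 (2.0.10), Cuffdiff (2.1.1) and hg19 are listed in the submitters' processing notes, while neither annotation nor strand setting is stated there. Per the file headers, the deposited table gives 1 FPKM value per gene and group, computed by the authors from both libraries together. It also holds Cuffdiff's test statistic, taken as a score, with its p-value, and the deposited q-value, adjusted by the authors over all tested rows of the 3 comparisons. The deposited start positions are counted from 0 and are printed counted from 1. No total count of fragments was used, so the depth is unknown and no counting interval is given.

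A gene counted as called where its status was OK and its deposited q was below 0.05. Log2 ratios were computed from the deposited FPKM values without a pseudocount, and medians use genes at 1 FPKM or more in each group. The implied standard error is a description, since Cuffdiff does not take its p from a normal distribution. Counting and adjustment were tested on simulated data. Sequences came from RefSeq (GRCh38.p14, promoters, matched by symbol) and GENCODE release 29 (coding sequences, aligned globally with Biopython 1.88). Other steps used Python 3.11.15, pandas 2.3.3, scipy 1.17.1 and matplotlib 3.10.9.

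The genes, the lists and the comparisons were chosen with earlier results of these data known. Genes are named with values where they were called, were among the 6 highest or lowest by mean FPKM, had 1 of the 3 largest rises or falls in a comparison, are paralog copies or their parents, or were not tested. RPL38, RPS6, RPS16, RPSA, RPL5, RPL11, RPLP2, RPL8 and RPL28 were added for their role or to make a count clear after their values were seen. From each other list at most 4 called genes were named by the size of their change, and NPM1, NCL, FBL, EEF1A1 and LARP1 were added in the same way. A few genes, a paralog copy among them, and some sequences are not reported here. No value column was left unmapped. Alternatives were a q below 0.01, p recomputed from the test statistic, another minimum level, the genes counted, pseudocounts and 2 other scalings.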

Additional observations from a re-analysis of the deposited data

How the results depend on the processing

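The counts of ribosomal protein genes called, 1 for day 3 against day 0, 0 for day 5 against day 3 and 2 for day 5 against day 0, were the same under a q below 0.01, under the p recomputed from the test statistic, at a minimum FPKM of 10, without genes that share a locus and with the 4 genes of other symbols added. Without the paralog copies the count was 0 for day 3 against day 0 and 1 for day 5 against day 0, because RPL22L1 is such a copy. The median log2 ratio turned from -0.04 to 0.19 for day 5 against day 3 and from -0.05 to 0.19 for day 5 against day 0 when each group was divided by its FPKM sum, and the ratio of summed levels became 1.14 and 1.12. The same division put the median over all genes at 0.16 and 0.22 in these comparisons. Dividing by the median gene gave a median log2 ratio of -0.09, 0.02 and -0.05 in the 3 comparisons. Leaving out MIR4461, MIR1244-1 and MIR1244-3, an alternative chosen after seeing the data, gave 1.08 for day 5 against day 3 and 1.04 for day 5 against day 0. Under the FPKM sum RPL22L1 was at -1.25 and RPS26 at -0.79 on the log2 scale for day 5 against day 0. Adding RPL21P28 to RPL21, also chosen after seeing the data, turned its log2 ratio to 0.20, -0.01 and 0.20. With the recomputed p, the genes called among all tested were 1242 in place of 2009 for day 5 against day 3 (945 higher and 1064 lower by the deposited q). For day 5 against day 0 they were 3106 in place of 4424. The ribosome biogenesis factors called were then 5 in place of 14 for day 5 against day 3 and 8 in place of 14 for day 5 against day 0, the RNA polymerase I genes 0 in place of 2 for day 5 against day 3, and the initiation factors 1 in place of 3 for day 5 against day 0. No paired analysis was possible because the table holds 1 value per group, and for the same reason no library could be left out.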
